A study of Homo sapiens with 8 samples.

Results

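Growth factor receptors, receptors for bacterial products, integrins and an Fc receptor mark the surface of monocytes, and 10 of their genes were examined here for binding of the leukemia fusion proteins AML1-ETO and ETO2-GLIS2. The genes were CSF1R, CSF2RB, CSF3R, CD14, TLR2, TLR4, ITGAM, ITGAX, FCGR1A and CD68, of 20144 protein-coding genes annotated on chromosomes 1 to 22, X and Y. A peak was counted at a gene if its summit, the base with the highest signal, lay in the gene or within 20 kb of either end. By this rule 247 of 235023 peaks were at the 10 genes.

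In AML1-ETO the Runt domain of RUNX1, which binds DNA, is fused to the corepressor ETO (RUNX1T1). In ETO2-GLIS2 the related corepressor ETO2 (CBFA2T3) is fused to the GLIS2 zinc fingers. Each protein, with an HA tag at its N-terminus, was expressed from a doxycycline-inducible retroviral vector in U937, a human monoblastic cell line from a histiocytic lymphoma, and every U937 line used was a single clone selected with puromycin. The AML1-ETO line (U937-AE) and the ETO2-GLIS2 line (U937-EG) received doxycycline at 5 µg/ml for 12 or 48 h, and DNA bound by the tagged protein was pulled down with beads carrying an antibody to HA before sequencing (ChIP-seq). The 8 libraries were 4 ChIP libraries, 1 for each protein and time, and their 4 inputs. With 1 library a group there was no replicate check, and no test was made. Protein and clone cannot be told apart, and neither can time and library. No ChIP library without a fusion protein was analysed here, and the files hold no RNA measurement, so neither expression of these genes nor the identity of the cells was examined.

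Monocytes arise from myeloid progenitors under the control of colony-stimulating factors. The receptor for CSF1 carries the lineage to macrophages, the receptor for CSF3 serves granulocytes, and the shared beta chain encoded by CSF2RB passes on signals of CSF2, IL3 and IL5. As the cells mature they acquire the receptors with which they detect lipopolysaccharide and lipopeptides, the integrins with which they adhere, and receptors for antibody. In myeloid cells RUNX1, the ETS factor PU.1 and C/EBP factors are known regulators of several of these genes.

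The lists differed in length, with 70833 peaks for AML1-ETO at 12 h, 105769 for AML1-ETO at 48 h, 28325 for ETO2-GLIS2 at 12 h and 30096 for ETO2-GLIS2 at 48 h. The number of reads behind each list was not used here, and no list was adjusted for depth. By the paper's own read numbers, the ETO2-GLIS2 library at 48 h had the fewest reads of the 4 ChIP libraries. Peak strength is given as the rank of a peak by −log10 q within its own list, in percent of the list, where a small percentage means a strong peak. A percentage still depends on the length of the list, and an order between the proteins is given only where the rank number and the percentage gave the same one. The 10 genes held 76, 102, 34 and 35 peaks in the lists in this order. Median peak density was 11.6, 12.2, 3.65 and 5.38 peaks per 100 kb of gene and flanks, against 3.77, 5.76, 1.61 and 1.59 over all protein-coding genes. Of the 10 genes, 9, 9, 8 and 8 lay above the median of all genes. The windows were of similar length, with a median of 61.4 kb for the 10 genes and 67.2 kb for all genes. Of the peaks at the 10 genes, 27, 29, 11 and 16 had their nearest protein-coding start at a gene outside the 10. Densities over all genes include such peaks as well. At FCGR1A, 35 of 36 summit windows had a near-identical copy elsewhere in the genome, as described below.

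All 10 genes had an AML1-ETO peak at 12 h and at 48 h, where 77.7% and 80.4% of all protein-coding genes did. ETO2-GLIS2 had a peak at 9 genes at 12 h, all but CSF2RB, and at 9 genes at 48 h, all but TLR4, against 66.4% and 66.1% of all genes. A summit within 1 kb of the annotated gene start was present at 8 genes for AML1-ETO at 12 h (45.1% of all genes) and at 7 genes at 48 h (49.9%). ETO2-GLIS2 had such a summit at 5 genes at 12 h (35.4%) and at 6 genes at 48 h (38.2%). The starts of CSF3R, TLR2, ITGAX and FCGR1A had a summit in all 4 lists. Those of TLR4 and ITGAM had a summit in both AML1-ETO lists and in neither ETO2-GLIS2 list. CSF1R had a summit within 1 kb of its outermost gene start in none of the 4 lists, and within 1 kb of some annotated transcript start in all 4. For ETO2-GLIS2 these were transcript starts inside the gene, with summits 45.6 kb past the gene start at 12 h and 46.2 kb past it at 48 h. A peak of the strongest 10% of its list was present at 6 and 7 genes for AML1-ETO at 12 h and 48 h, where 35.6% and 50.7% of all genes had one. For ETO2-GLIS2 it was present at 4 and 5 genes, against 17.5% and 19.7%.

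**Figure D1:**
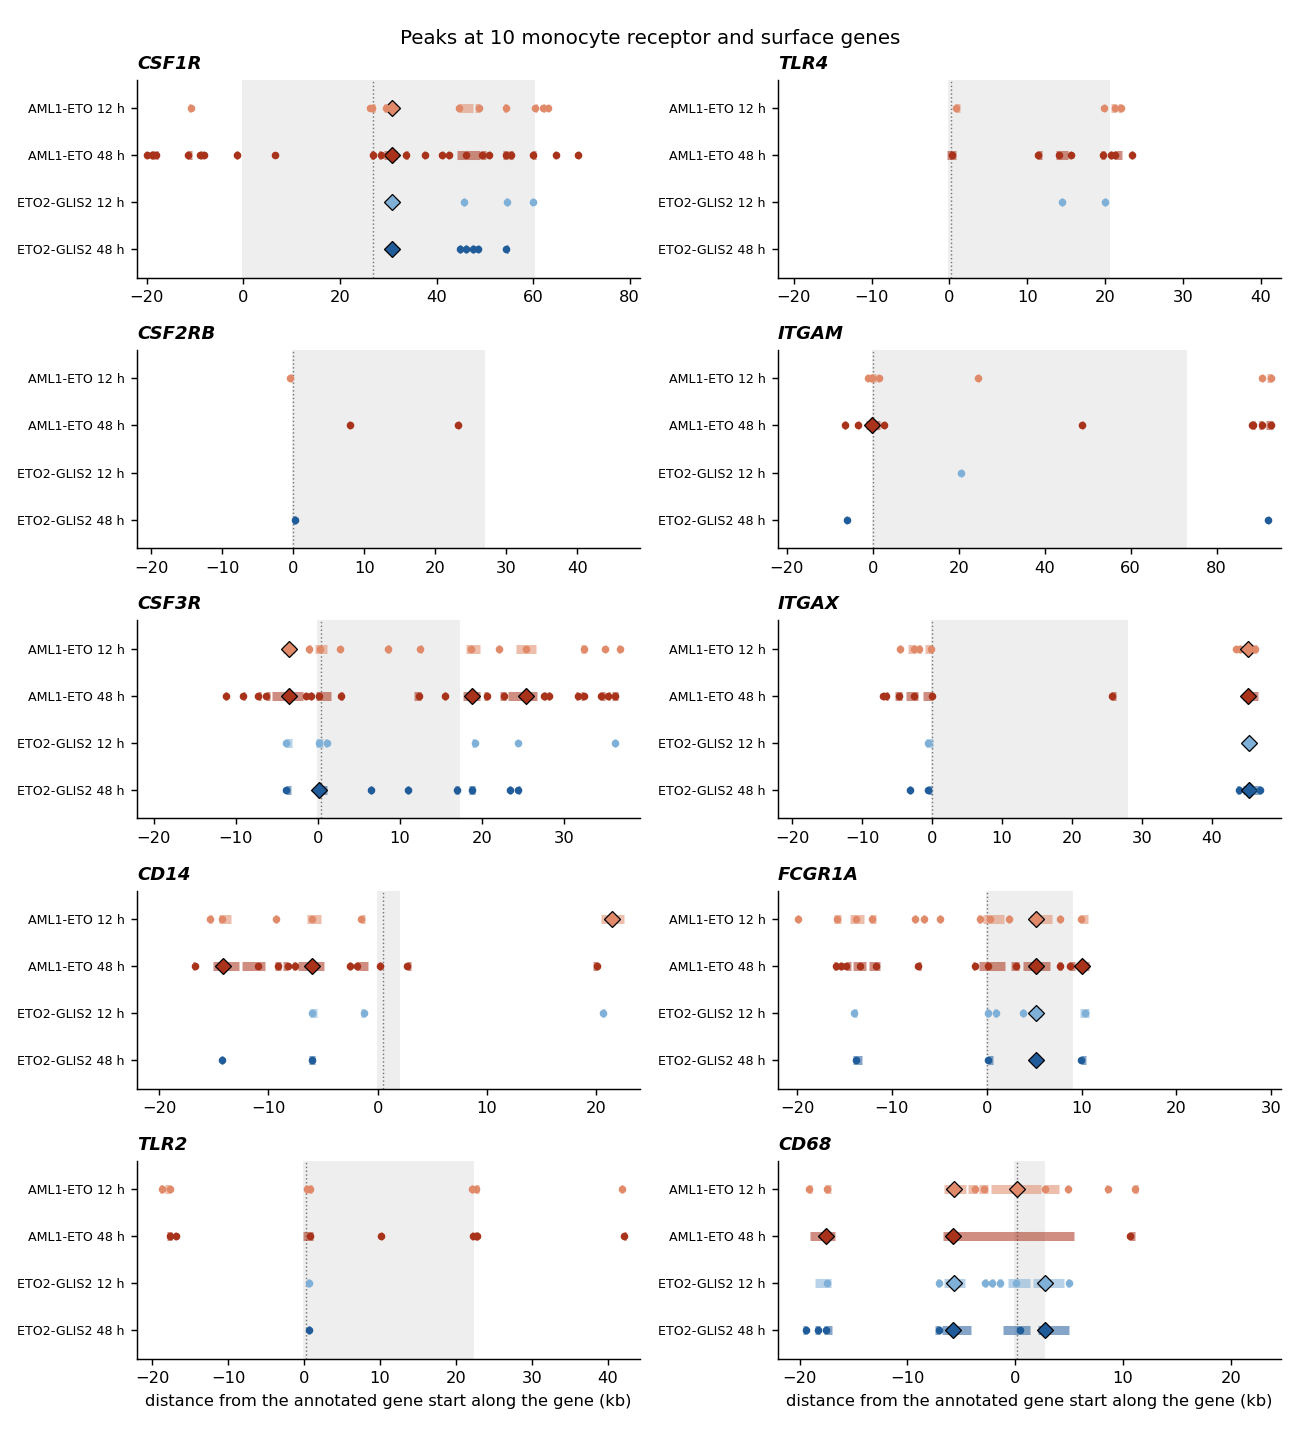
Positions of all peaks at the 10 genes, with the distance from the annotated gene start in kb on the horizontal axis and 1 line for each list. Points are summits, bars are peak widths, outlined diamonds are peaks of the strongest 10% of their list, grey marks the gene body and the dotted line the start of the canonical transcript. Both proteins share the diamond inside CSF1R, and only the AML1-ETO lines have a summit at the starts of TLR4 and ITGAM.

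**Figure D2:**
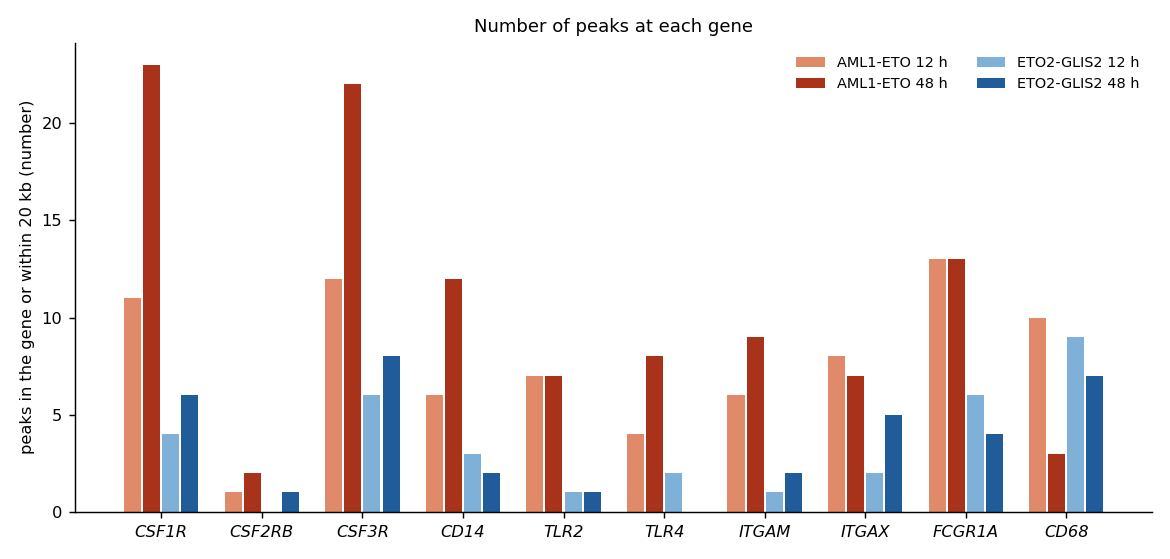
Number of peaks in each gene or within 20 kb of it (vertical axis) for the 10 genes and 4 lists, with 1 bar for each list and no error bar because each list is 1 library. AML1-ETO at 48 h reached 23 peaks at CSF1R and 22 at CSF3R, and CD68 had 3.

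Of the growth factor receptors, CSF1R carried a strong peak of both proteins inside the gene. CSF1R (chr5:149432854-149492935, minus strand) had 11 and 23 AML1-ETO peaks at 12 h and 48 h and 4 and 6 ETO2-GLIS2 peaks. The annotated gene start lies 26.8 kb before the start of the canonical transcript, and distances are from the gene start unless stated. At the start of the canonical transcript AML1-ETO had summits at −139 bp (36.8%) and −588 bp (41.7%) at 12 h and 67 bp past it at 48 h (34.0%), and ETO2-GLIS2 had none within 1 kb at either time. The strongest CSF1R peak in all 4 lists was the same site in intron 1 of the canonical transcript, 3.9 kb past its start, with summits that lay within 19 bp of each other. It ranked 1083 in the AML1-ETO list at 12 h (1.53%) and 3116 at 48 h (2.95%). In the ETO2-GLIS2 lists it ranked 1325 (4.68%) and 2717 (9.03%). The AML1-ETO peak was 1841 and 2653 bp wide and the ETO2-GLIS2 peak 1130 and 645 bp, so the site was broader in the AML1-ETO list at both times. The intron past the macrophage start of CSF1R is known for an enhancer of the gene, whose position was not compared with the site. The sequence at the site is printed because it is the strongest position of the growth factor receptor genes in the AML1-ETO lists, with capitals for a CAGCTG match.
CSF1R intron site, AML1-ETO 48 h, chr5:149462155-149462275, minus strand: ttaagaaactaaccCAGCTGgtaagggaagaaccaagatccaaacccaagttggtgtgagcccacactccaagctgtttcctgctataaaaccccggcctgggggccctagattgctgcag
In this and the other windows printed, the 121 bases are centred on the summit and read 5′ to 3′ on the strand of the gene, from GRCh37. The remaining CSF1R peaks were weaker. Toward the end of the gene, 44.7 to 46.2 kb from the gene start, AML1-ETO had a wide peak of 3169 bp at 12 h (14.6%) and 4768 bp at 48 h (10.6%). ETO2-GLIS2 had narrower peaks there, at 45.6 kb at 12 h (265 bp, 54.1%) and at 46.2 and 44.9 kb at 48 h (551 and 371 bp, both 38.1%). At 48 h it had 2 more under the same wide AML1-ETO peak, at 47.5 and 48.7 kb (both 56.3%). All 6 ETO2-GLIS2 peaks at CSF1R at 48 h overlapped a peak of AML1-ETO, whereas 3 of the 23 of AML1-ETO overlapped one of ETO2-GLIS2.

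CSF3R, the receptor for granulocyte colony-stimulating factor (chr1:36931644-36948879, minus strand), had 12 and 22 AML1-ETO peaks and 6 and 8 ETO2-GLIS2 peaks. Both proteins had a summit 137 to 288 bp past the gene start in all lists. At the start the ETO2-GLIS2 peak ranked at 17.4% and 8.65% and the AML1-ETO peak at 26.2% and 16.1%. AML1-ETO at 48 h had another summit near the start, at −838 bp (43.9%, 237 bp wide). The order was the other way at a site upstream of the gene. There AML1-ETO had a peak with its summit at −3.5 kb at 12 h (8.51%) and −3.49 kb at 48 h (3.77%), its strongest at the gene, and ETO2-GLIS2 had one at −3.83 kb (30.5%) and −3.82 kb (23.1%). The AML1-ETO peak upstream of CSF3R was 1453 and 3787 bp wide and the ETO2-GLIS2 peak 769 and 690 bp. The AML1-ETO summit carried a CAGCTG match followed at 3 bases by GAGGAA, an ETS core that PU.1 can bind.
CSF3R upstream site, AML1-ETO 48 h, chr1:36952307-36952427, minus strand: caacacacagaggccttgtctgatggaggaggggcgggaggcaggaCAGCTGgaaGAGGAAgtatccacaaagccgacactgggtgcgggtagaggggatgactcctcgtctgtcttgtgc
Part of the peaks counted at CSF3R lay nearer to another gene. AML1-ETO peaks 25.4 and 18.8 kb past the gene start, with ranks of 7.89% and 8.65% at 48 h, were nearest to the start of MRPS15, a mitochondrial ribosomal protein gene. Of the 22 AML1-ETO peaks at 48 h, 9 had CSF3R as the gene with the nearest protein-coding start.

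CSF2RB, the common beta chain (chr22:37309670-37336481, plus strand), had few and weak peaks in all lists. AML1-ETO had 1 peak at 12 h, at −413 bp (70.0%), and 2 at 48 h, inside the gene at 8.0 kb (86.1%) and 23.2 kb (60.3%). ETO2-GLIS2 had no CSF2RB peak at 12 h and 1 at 48 h, 181 bp past the start (45.2%, 438 bp wide). None of the 4 peaks overlapped a peak of the other protein or of the other time.

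Among the genes for recognition of bacterial products, TLR2 had a shared site at its start and CD14 a shared site upstream, and TLR4 had no ETO2-GLIS2 peak at 48 h. Most peaks at each of these genes were in the AML1-ETO lists, which were the longer ones. TLR2 encodes the lipopeptide receptor (chr4:154605222-154627412, plus strand). The site lay in intron 1, with summits 683 to 717 bp past the gene start in all 4 lists. AML1-ETO ranked at 35.4% at 12 h and 15.7% at 48 h, and ETO2-GLIS2 at 46.1% and 28.0%. By rank number ETO2-GLIS2 stood higher there, at 13066.5 and 8418.5 against 25071 and 16625.5, so the order depended on the scale. AML1-ETO at 12 h had another summit 373 bp past the start (92.7%, 252 bp). The shared site was the only TLR2 peak of ETO2-GLIS2 at either time, and AML1-ETO had 7 peaks at each time, the strongest at 12 h lying 17.7 kb upstream (13.1%, 815 bp). At the shared site the AML1-ETO peak was 326 bp wide at 12 h and 1192 bp at 48 h, and the ETO2-GLIS2 peak 431 and 377 bp. The window at the AML1-ETO summit at 48 h is printed as an example of a shared site with none of the searched letters, and 80.2% of its bases were G or C.
TLR2 start site, AML1-ETO 48 h, chr4:154605879-154605999, plus strand: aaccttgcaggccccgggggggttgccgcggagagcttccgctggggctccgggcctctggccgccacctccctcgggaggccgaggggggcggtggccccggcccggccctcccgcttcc

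CD14, the co-receptor for lipopolysaccharide (chr5:140011313-140013285, minus strand), had 6 and 12 AML1-ETO peaks and 3 and 2 ETO2-GLIS2 peaks. The site of all 4 lists lay upstream of the gene, at −6.02 to −6.04 kb, with summits within 26 bp of each other, in exon sequence of the neighbouring gene TMCO6 and 283 bp from the TMCO6 start in the AML1-ETO list at 48 h. AML1-ETO ranked at 11.4% and 4.54% there (8109 and 4797.5 by number) and ETO2-GLIS2 at 19.2% and 14.1% (5443 and 4240), so the order depended on the scale. The AML1-ETO peak was 1340 and 2369 bp wide and ETO2-GLIS2 569 and 579 bp. The summit windows of all 4 lists held a Runt match, GAGGAA and CAGCTG. The strongest CD14 peak of AML1-ETO at 12 h was another, past the end of the gene at 21.5 kb from its start (8.92%, 2036 bp). Near the start of CD14 itself, AML1-ETO had a peak at −1.48 kb at 12 h (50.9%) and at −1.85 kb at 48 h (25.5%). A summit within 1 kb was found only in the AML1-ETO list at 48 h, 240 bp past the gene start, with a width of 238 bp and a rank of 38.3%. ETO2-GLIS2 had a peak at −1.28 kb at 12 h (83.4%) and none within 6 kb of the gene start at 48 h.

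TLR4, the signalling receptor for lipopolysaccharide (chr9:120466453-120487013, plus strand), had 4 and 8 AML1-ETO peaks against 2 and 0 ETO2-GLIS2 peaks. The part of depth in the absence of ETO2-GLIS2 peaks at 48 h was not tested. AML1-ETO had a summit 790 bp past the gene start at 12 h (50.9%, 591 bp) and 327 bp past it at 48 h (28.2%, 1064 bp). Its strongest TLR4 peak at 48 h lay 14.1 kb into the gene (15.7%, 1524 bp), and that at 12 h lay 19.9 kb into it (32.4%, 173 bp). ETO2-GLIS2 peaks at 12 h were at 14.5 kb (83.4%) and 20 kb (46.1%), widths 193 and 264 bp. The peak at 20 kb overlapped an AML1-ETO peak of the same time, and that at 14.5 kb did not.

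The integrin genes ITGAM and ITGAX lie side by side on chromosome 16 and encode the alpha chains CD11b and CD11c, which pair with the beta chain CD18. They differed at their starts. At ITGAM (chr16:31271288-31344213, plus strand) AML1-ETO had a summit 95 bp before the gene start at 12 h, 1613 bp wide and ranked at 10.7%. At 48 h the summit lay 109 bp before the start, 3330 bp wide and ranked at 6.5%. ETO2-GLIS2 had no peak overlapping that region at either time. Its nearest ITGAM peaks were 20.6 kb into the gene at 12 h (74.1%) and upstream, at −6.07 kb, at 48 h (96.1%), among the weaker ones of their lists. The window at the AML1-ETO summit holds GAGGAA.
ITGAM start, AML1-ETO 48 h, chr16:31271119-31271239, plus strand: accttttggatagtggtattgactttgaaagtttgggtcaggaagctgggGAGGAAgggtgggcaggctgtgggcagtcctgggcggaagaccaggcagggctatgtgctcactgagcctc
At ITGAX (chr16:31366455-31394320, plus strand) both proteins had a summit before the gene start, at different positions. AML1-ETO summits lay at −82 bp at 12 h (18.6%) and −51 bp at 48 h (13.3%), in peaks of 947 and 1431 bp. ETO2-GLIS2 summits lay at −525 bp (25.1%) and −523 bp (28.0%), in peaks of 957 and 615 bp. Peaks overlapped between the proteins at both times, but the summits did not come within 200 bp of each other. The window at the ETO2-GLIS2 summit at 48 h is printed for its TGTGGT, a Runt match, in capitals.
ITGAX start, ETO2-GLIS2 48 h, chr16:31365872-31365992, plus strand: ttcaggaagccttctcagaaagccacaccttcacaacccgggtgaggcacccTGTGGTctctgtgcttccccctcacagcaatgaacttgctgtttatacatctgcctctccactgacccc
A stronger site of both proteins lay 45.2 to 45.3 kb past the ITGAX start, inside ITGAD, the gene of another beta-2 integrin alpha chain. It ranked 2428 (3.43%) and 8174.5 (7.73%) in the AML1-ETO lists and 399 (1.41%) and 614 (2.04%) in the ETO2-GLIS2 lists, tied peaks taking the mean of their ranks. ETO2-GLIS2 thus stood higher in its list than AML1-ETO at this site at both times. Fold enrichment at the summit was 25.8 and 16.1 in the AML1-ETO lists and 68.2 and 62.1 in the ETO2-GLIS2 lists, values that depend on depth and were not compared between lists. The AML1-ETO summit at 48 h lay on a pair of opposed Runt matches, and the ETO2-GLIS2 summit lay further along, in a printed window with CCCCCCA, which is TGGGGGG, the core of the GLIS consensus, read on the other strand. In windows of 200 bp the summits of all 4 lists held a Runt match at this site, and those of ETO2-GLIS2 held a GLIS match too.
site past ITGAX, AML1-ETO 48 h, chr16:31411644-31411764, plus strand: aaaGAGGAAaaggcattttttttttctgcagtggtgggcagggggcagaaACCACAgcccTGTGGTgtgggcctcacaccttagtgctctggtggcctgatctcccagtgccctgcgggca
site past ITGAX, ETO2-GLIS2 48 h, chr16:31411709-31411829, plus strand: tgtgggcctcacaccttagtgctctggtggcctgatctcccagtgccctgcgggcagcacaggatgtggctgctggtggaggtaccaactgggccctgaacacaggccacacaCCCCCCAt
Upstream of ITGAX, AML1-ETO also had a peak at −2.6 kb at 12 h (10.3%) and −2.59 kb at 48 h (10.6%), in an exon of a long noncoding RNA gene. At this position ETO2-GLIS2 had a weak peak at 48 h, at −3.13 kb (56.3%), and none at 12 h. These peaks also fall in the ITGAM window. In all, 2, 4, 0 and 1 peaks of the lists lay in the windows of both genes, and each was counted once in the totals.

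FCGR1A, the high-affinity receptor for IgG (chr1:149754227-149763231, plus strand), had 13 AML1-ETO peaks at each time and 6 and 4 ETO2-GLIS2 peaks. The strongest peak of all 4 lists was in intron 3, with summits 5.15 to 5.19 kb past the start. It ranked at 7.93% and 4.49% in the AML1-ETO lists and at 3.89% and 5.27% in those of ETO2-GLIS2. At 48 h the order depended on the scale, with rank numbers of 4754 for AML1-ETO and 1586 for ETO2-GLIS2. AML1-ETO peaks there were 2397 and 2896 bp wide and ETO2-GLIS2 peaks 918 and 516 bp. Another site of all 4 lists lay 126 to 295 bp past the start, where AML1-ETO ranked at 14.3% and 14.2% and ETO2-GLIS2 at 23% and 69.7%. By rank number ETO2-GLIS2 stood higher at this site at 12 h, at 6514 against 10139.5, so the order at 12 h depended on the scale. Further summits near the start were those of AML1-ETO at −661 bp (37.1%) and of ETO2-GLIS2 951 bp past it (55.6%), both at 12 h. Where these reads come from is uncertain. Of 36 summit windows of 200 bp at FCGR1A, 35 had at least 1 other copy of 95% identity or more in GRCh37, with up to 4 copies. FCGR1A has near-identical relatives on the same chromosome. At the other 9 genes 5 summit windows in all had such a copy. They include the only ITGAM peak of ETO2-GLIS2 at 12 h, with 1531 copies, and the AML1-ETO peak 48.6 kb into ITGAM at 48 h, with 407. Without all peaks that have a copy, a choice made after seeing the data, 10, 9, 7 and 8 genes kept a peak in the order of the lists. The FCGR1A start also lies over an annotated exon of H2BC18, a histone gene with long transcripts there.

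CD68, a lysosomal glycoprotein of macrophages, is a short gene (chr17:7482809-7485429, plus strand) in a crowded region, and most peaks counted there lay nearer to another gene. AML1-ETO had 10 peaks at 12 h and 3 at 48 h, and ETO2-GLIS2 had 9 and 7. At 48 h an AML1-ETO peak of 12099 bp, the widest at the 10 genes, ran from EIF4A1 over all of CD68, and the 12 h list had 6 separate peaks under it. The summit of the wide peak lay before CD68 at −5.74 kb (rank 1128, 1.07%), so by the summit rule CD68 had no AML1-ETO peak at its start at 48 h although the peak covered it. AML1-ETO at 12 h had a peak of 4715 bp with its summit 130 bp past the gene start (6.11%). ETO2-GLIS2 peaks at the CD68 start had summits at 47 and 454 bp and ranked at 24.2% and 22.2%. The strongest ETO2-GLIS2 peaks at any of the 10 genes lay just past the end of CD68, 2.74 and 2.75 kb from its start, with ranks of 212 (0.748%) and 201 (0.668%) and fold enrichments of 88.8 and 101. AML1-ETO at 12 h had a peak at the same place with a rank of 17.8%. At 48 h the place lay under the wide AML1-ETO peak, whose summit was at −5.74 kb. The nearest protein-coding start was that of MPDU1, 1284 bp away at 48 h, and the base lies in an exon of a long noncoding RNA gene. The window holds the GLIS core on the other strand, a CAGCTG match, and GAGGAA on the other strand.
site past CD68, ETO2-GLIS2 48 h, chr17:7485503-7485623, plus strand: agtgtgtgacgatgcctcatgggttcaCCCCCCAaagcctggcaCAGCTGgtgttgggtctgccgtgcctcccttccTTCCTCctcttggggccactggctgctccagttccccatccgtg

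**Figure D3:**
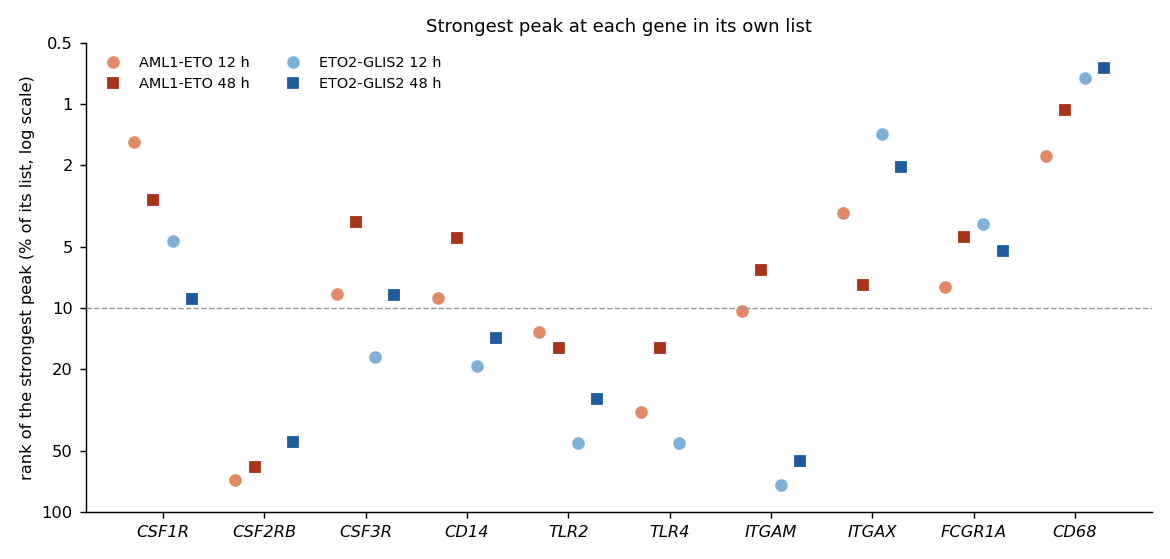
Rank of the strongest peak at each of the 10 genes in percent of its own list (log scale, strong peaks at the top), with circles for 12 h, squares for 48 h and a dashed line at 10%. No point is drawn where a list had no peak. CD68 and ITGAX stood highest in the ETO2-GLIS2 lists, CSF2RB was low throughout, and at ITGAM the proteins were far apart.

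Sharing of peaks between the proteins at the 10 genes was close to that of the whole lists. Of the ETO2-GLIS2 peaks at these genes, 28 of 34 at 12 h (82.4%, 95% Clopper-Pearson interval 65.5 to 93.2) and 29 of 35 at 48 h (82.9%, 66.4 to 93.4) shared 1 bp or more with a peak of AML1-ETO. Over the whole lists the shares were 74.5% and 83.4%. In the other direction, 25 of 76 AML1-ETO peaks at 12 h (32.9%, 22.5 to 44.6) and 20 of 102 at 48 h (19.6%, 12.4 to 28.6) shared bases with one of ETO2-GLIS2, against 26.2% and 17.8% of the whole lists. The intervals cover counting error only, and each interval held the value of its list. Joined over the 4 lists, the peaks formed 126 regions, of which 92 had AML1-ETO alone, 27 both proteins and 7 ETO2-GLIS2 alone. AML1-ETO at 48 h alone accounted for 55 of them, and 17 had a peak in all 4 lists. The 7 ETO2-GLIS2 regions were at CSF3R (3), CD68 (2), CSF2RB (1) and ITGAM (1).

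Between the time points, 57 of 76 AML1-ETO peaks at 12 h (75.0%, 63.7 to 84.2) met one of the 48 h list, and 44 of 102 at 48 h (43.1%, 33.4 to 53.3) met one of the 12 h list. The whole lists gave 73.9% and 36.8%. For ETO2-GLIS2 the shares were 22 of 34 (64.7%, 46.5 to 80.3) and 22 of 35 (62.9%, 44.9 to 78.5), against 60.6% and 54.6%. At CSF1R 8 of 11 AML1-ETO peaks at 12 h and 6 of 23 at 48 h had a partner at the other time, and at TLR4 4 of 4 and 4 of 8. Median AML1-ETO widths at the 10 genes were 470.5 and 438.5 bp and median ETO2-GLIS2 widths 324.5 and 471 bp, where the whole lists had 360 and 415 bp and 382 and 399 bp.

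A stricter view of sharing used sites where summits of all 4 lists lay in a chain with steps of at most 200 bp. There were 9 such sites at 7 of the 10 genes, and 37.8% of all protein-coding genes had at least 1. The genes were CSF1R, CSF3R, CD14, TLR2, ITGAX, FCGR1A and CD68, the last with sites at −17.5 kb near the start of SENP3 and at −5.7 kb near that of EIF4A1, while CSF2RB, TLR4 and ITGAM had none. For 4 of the 9 sites, those at CD14, CD68 and past ITGAX, the nearest protein-coding start was that of another gene. At 48 h the AML1-ETO peak was wider than the ETO2-GLIS2 peak at 9 of 9 sites, by a median factor of 4.09 (range 1.54 to 5.61). The 7079 such sites of the genome had a median factor of 3.27, and 95.4% were wider in AML1-ETO. At 12 h AML1-ETO was wider at 7 of 9 sites, with a median factor of 1.63 (0.348 to 8.35), against 1.96 and 82.1% in the genome. The exceptions at 12 h were TLR2 and the site near SENP3. AML1-ETO peaks were wider at 48 h than at 12 h at 9 of 9 sites, against 91.6% in the genome, and ETO2-GLIS2 peaks at 5 of 9, against 59.4%. In percent of the list AML1-ETO ranked higher than ETO2-GLIS2 at 6 of 9 sites at 12 h and 7 of 9 at 48 h, against 73.5% and 85.7% in the genome. By rank number it did so at 1 and 2 of 9, against 42.5% and 46.6%.

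**Figure D4:**
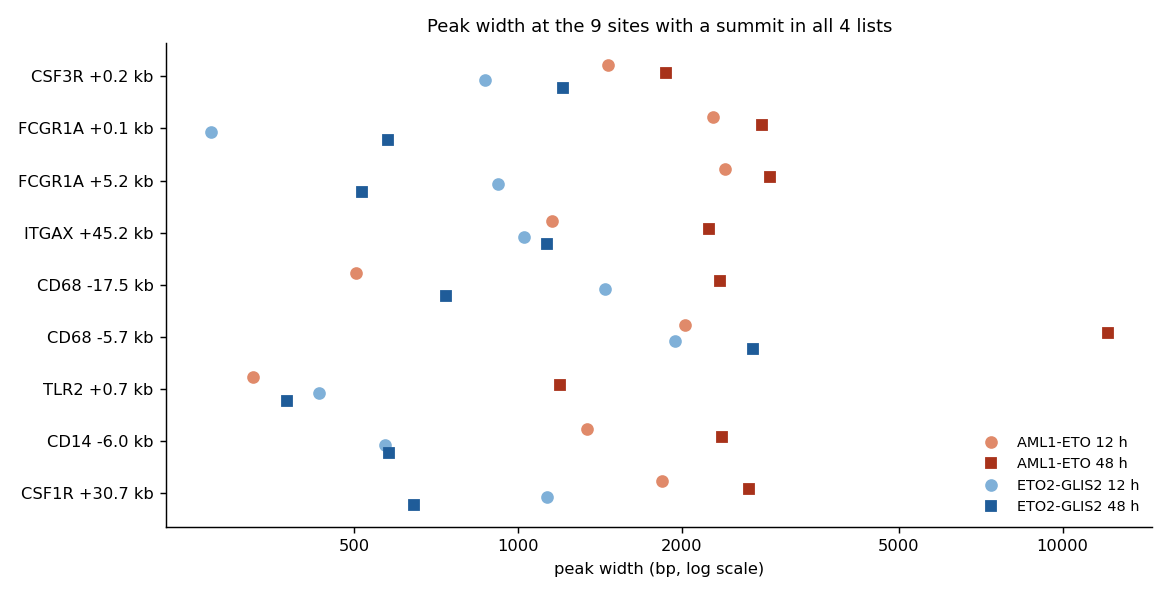
Width in bp (log scale) of the peaks of the 4 lists at the 9 sites that all lists share, named by gene and by the distance of the AML1-ETO summit at 48 h from the gene start. Dark red squares (AML1-ETO, 48 h) lie to the right of the dark blue squares (ETO2-GLIS2, 48 h) at every site, and the widest is the 12099 bp peak upstream of CD68.

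Summit windows of 200 bp were searched on both strands for short consensus letters. The patterns were TGTGGT or TGCGGT (Runt), TGGGGGG (GLIS), GAGGAA and CCGGAAGT (ETS), TTGCNNAA (C/EBP), TGACTCA or TGAGTCA (AP-1) and CAGCTG (E-box), and none contains another. In the AML1-ETO list at 48 h, Runt letters were present at 13 of 102 summits of the 10 genes (12.7%, 6.96 to 20.8) and at 24.9% of all summits. At 12 h they were present at 17 of 76 (22.4%, 13.6 to 33.4), against 26.7%. The interval for Runt letters lay below the value of the list at 48 h and held it at 12 h. GLIS letters were present at 9 of 102 AML1-ETO summits at 48 h (8.82%, 4.11 to 16.1), against 3.83% of the list, and at 7 of 76 at 12 h (9.21%, 3.78 to 18.1), against 4.23%. The interval at 48 h lay above the value of the list and that at 12 h held it. In windows of 100 bp the interval for GLIS letters held the value of the list at 48 h (2.94%, 0.611 to 8.36, against 2.04%) and lay above it at 12 h (7.89%, 2.95 to 16.4, against 2.3%). Runt letters at 48 h stayed below it (6.86%, 2.8 to 13.6, against 14.5%). Of the ETO2-GLIS2 summits at 48 h, 5 of 35 had GLIS letters (14.3%, 4.81 to 30.3), against 7.89%, and 8 had Runt letters (22.9%, 10.4 to 40.1), against 21.9%.

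GAGGAA was present at 24 of 76 AML1-ETO summits at 12 h (31.6%, 21.4 to 43.3), against 19.6%, with an interval above the value of the list. At 48 h the interval held it. It was present at 22 of 102 AML1-ETO summits at 48 h (21.6%, 14.0 to 30.8), against 19.1%, and at 6 of 35 ETO2-GLIS2 summits (17.1%, 6.56 to 33.6), against 22%. At 48 h C/EBP letters were present at 13.7% (7.71 to 22) and 8.57% (1.8 to 23.1), against 9.52% and 8.6%. AP-1 letters were present at 8 AML1-ETO summits (7.84%, 3.45 to 14.9), against 4.74%, and at 5 ETO2-GLIS2 summits (14.3%, 4.81 to 30.3), against 4.84%. CAGCTG was present at 10.8% (5.51 to 18.5) and 17.1% (6.56 to 33.6), against 13.7% and 16.8%, and CCGGAAGT at 1 summit in each list, against 0.579% and 1.38%. No allowance was made for the 7 patterns searched. Summits of overlapping peaks share bases, and a match is no evidence that a factor bound there.

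**Figure D5:**
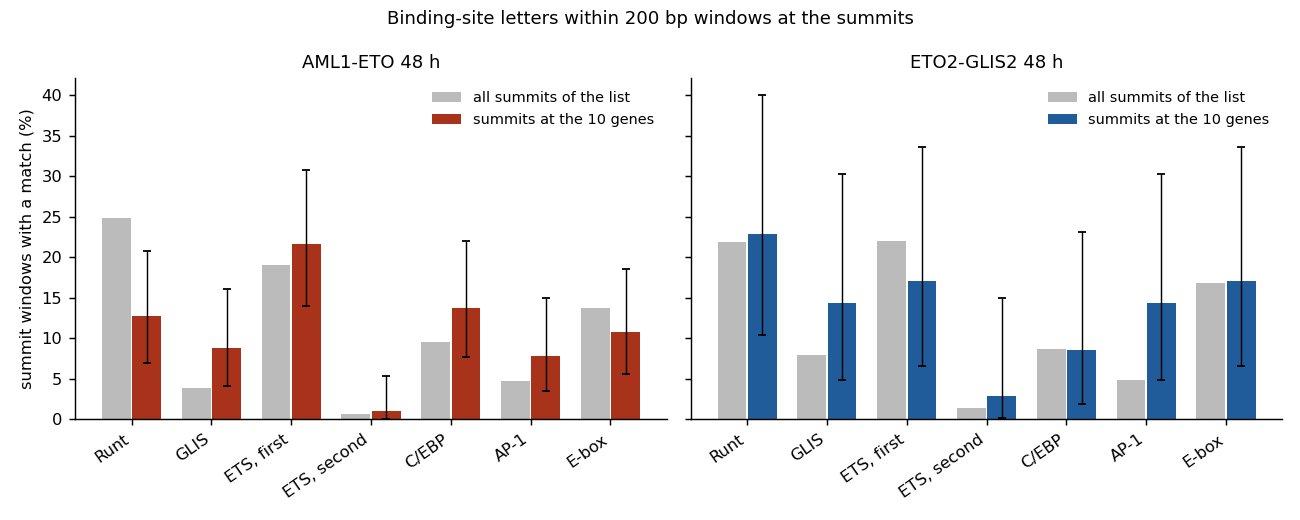
Share of 200 bp summit windows with a match to each pattern at 48 h, in percent, for all summits of the list (grey) and for those at the 10 genes (coloured, with 95% Clopper-Pearson intervals for counting error). Of the ETS bars, the first is GAGGAA and the second CCGGAAGT. Runt letters stood at 12.7% against 24.9% and GLIS letters at 8.82% against 3.83% for AML1-ETO, and the other intervals held the value of the list.

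Of the ligands, partner chains and adaptors that work with these receptors, and related surface genes, 30 were counted by the same rule. AML1-ETO had a peak at 27 (90.0%) and 28 (93.3%) of them at 12 h and 48 h, and ETO2-GLIS2 at 23 (76.7%) and 22 (73.3%). Over all protein-coding genes the shares were lower, at 77.7%, 80.4%, 66.4% and 66.1% in this order. A summit within 1 kb of the gene start was present at 12 and 14 genes for AML1-ETO (40.0% and 46.7%) and at 9 and 10 for ETO2-GLIS2 (30.0% and 33.3%), all below the shares over all genes given above. A peak of the strongest 10% was present at 11, 15, 7 and 7 genes in the order of the lists (36.7%, 50%, 23.3% and 23.3%), against the 35.6%, 50.7%, 17.5% and 19.7% of all genes. These counts are not all of separate peaks. The strongest peak at ITGAD was in each list the site past ITGAX described above. FCGR2A and FCGR3A shared their strongest peak in each list, and TLR1 and TLR6 shared theirs in the ETO2-GLIS2 lists. The partner chain ITGB2, the CD18 beta chain that pairs with the products of ITGAM and ITGAX, had the strongest peak of the 30 genes in both AML1-ETO lists, 17.7 kb into the gene with ranks of 0.072% and 0.123%. It had 22 and 24 AML1-ETO peaks and 23 and 29 ETO2-GLIS2 peaks, and at 17.6 kb ETO2-GLIS2 ranked at 0.646% and 1.59%. Its strongest peaks thus stood higher in each AML1-ETO list than any at the 10 receptor and surface genes.

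All 5 adaptors and kinases (MYD88, TIRAP, TICAM1, TICAM2 and SYK), which carry the signal of Toll-like and Fc receptors inward, had peaks in all 4 lists. ETO2-GLIS2 had a summit within 1 kb of the start of all 5 at both times, and AML1-ETO at 4, with MYD88 as the exception. The strongest AML1-ETO peaks at MYD88 had summits upstream at −1.63 and −1.58 kb (1.5% and 0.918%). They were 3696 and 10151 bp wide, and whether they covered the MYD88 start was not examined. FCER1G, the signalling gamma chain that FCGR1A needs, had a summit at its start in all 4 lists. Of the ligand genes, CSF1, IL34, CSF2 and CSF3 all had AML1-ETO peaks at both times, whereas ETO2-GLIS2 had a peak only at IL34 at 12 h (74.1%) and only at CSF3 at 48 h (87.0%), both weak. The scavenger and mannose receptor genes MSR1 and MRC1 had no peak in any list, CD36 had peaks only in the AML1-ETO list at 48 h, and CD163 had 1 AML1-ETO peak at each time (35.4% at 12 h and 82.2% at 48 h). CSF2RA and IL3RA lie in the region shared by the X and Y chromosomes, where the placement of reads is uncertain.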

How the data were processed

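The 4 ChIP libraries had a peak list each, and the 4 inputs served the authors as background. Groups and times came from the sample titles, since the treatment protocol names 48 h for all samples. According to the paper's methods and the submitters' processing notes, reads were aligned by the authors to hg19 with Bowtie2 2.2.9, handled with SAMtools 1.7, and used to call peaks with MACS2 2.1.1.20160309 on each library without pooling. Peak settings and removal of duplicate reads are not given in the sources used here. The deposited lists give a linear fold enrichment (a ratio) at the summit, the −log10 p-value and −log10 q-value by the authors' peak caller, and a score, which is 10 times the −log10 q truncated to a whole number. The lowest −log10 q was 1.3 or 1.31 in each list. These values grow with depth and were used only within a list.

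Genes were those of GENCODE 44 lifted to GRCh37, the assembly behind hg19, and sequences were read from GRCh37 with pysam 0.24.0. Coordinates are 1-based. The gene start is the outermost annotated start. Ranks used the −log10 q, ties taking the mean rank. Copies were searched with BLAST 2.17.0 at 95% identity over at least 180 of 200 bp. Intervals of shares are 95% Clopper-Pearson (scipy 1.17.1) and cover counting error only. No p-value was computed, since peaks of a library do not replicate it. Placement, overlap and motif counting were tested on simulated data. All 10 members were named, with each list's strongest peak and those within 1 kb of the start given in full. The members, the lists of other genes and the motifs were chosen with earlier results of these data known. Alternatives covered the threshold, window, assignment, joining, list length, overlap and motif window, and, chosen after seeing the data, peaks with near-identical copies and the scale of the rank. A further 131, 126, 68 and 60 peaks of the lists lay on other sequences and were left out. The sequences of some sites are not reported here.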

Additional observations from a re-analysis of the deposited data

Results flagged for a closer look

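At 3 genes the number of peaks in the gene or within 20 kb was higher at 48 h than at 12 h for 1 protein and lower for the other. With 1 library a group the difference was not tested. Numbers are given for 12 h and then 48 h. CD14 had 6 and 12 AML1-ETO peaks, against 3 and 2 ETO2-GLIS2 peaks. TLR4 had 4 and 8 AML1-ETO peaks, against 2 and 0 ETO2-GLIS2 peaks. ITGAX went the other way, with 8 and 7 AML1-ETO peaks and 2 and 5 ETO2-GLIS2 peaks. The lower AML1-ETO number at ITGAX did not go with less covered sequence. Its AML1-ETO peaks covered 5203 bp at 12 h and 7685 bp at 48 h, and its ETO2-GLIS2 peaks 1981 and 3522 bp. The whole AML1-ETO list grew from 70833 to 105769 peaks over the same interval and the ETO2-GLIS2 list from 28325 to 30096, and the part of list length in these counts was not tested.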

How the results depend on the processing

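Of 162 recomputed values, 104 stayed within 1.5 times the reported count or within the counting interval of the reported share or median, and 58 moved beyond it. Values follow in the order AML1-ETO 12 h, AML1-ETO 48 h, ETO2-GLIS2 12 h, ETO2-GLIS2 48 h, as far as they moved. Of the peaks at the 10 genes, those of −log10 q 5 or more numbered 40 and 45 for AML1-ETO, and those of 10 or more numbered 21, 27, 17 and 12. Joining peaks within 1 kb left 45 and 54 AML1-ETO peaks. When all lists were limited to an equal number of their strongest peaks, they held 36, 32, 34 and 33. The gene body alone held 23, 36, 15 and 15 peaks, and the body with 5 kb held 48 and 58 AML1-ETO peaks and 21 ETO2-GLIS2 peaks at 48 h. Peaks whose nearest coding start was the gene itself numbered 49 for AML1-ETO at 12 h and 19 for ETO2-GLIS2 at 48 h. Among peaks of −log10 q 10 or more, AML1-ETO at 12 h had a summit at 5 gene starts.

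The AML1-ETO share overlapping ETO2-GLIS2 was 17.1% and 5.88% when the overlap had to cover 50% of the peak, and 21.1% at 12 h for summits within 200 bp. It was 50% and 40.0% at a −log10 q of at least 5, 61.9% and 37.0% at 10, and 58.3% and 59.4% with lists of the same length. The ETO2-GLIS2 share was 47.1% and 40.0% for summits within 200 bp and, at 48 h, 100% at a −log10 q of at least 10. Overlap with the other time, by summits within 200 bp, was 39.5%, 29.4%, 44.1% and 42.9%, for AML1-ETO at 48 h it was 24.5% by the 50% rule, and with lists of the same length the AML1-ETO shares were 94.4% and 78.1%. Median widths were 901 and 1064 bp for AML1-ETO at a −log10 q of at least 5, 1461, 2080, 887 and 667.5 bp at 10, and 822 and 731.5 bp for joined AML1-ETO peaks.

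In 100 bp windows, AML1-ETO shares at 48 h were 6.86% for Runt letters, 2.94% for GLIS letters, 12.7% for GAGGAA and 3.92% for C/EBP letters, where all summits of the list had 14.5%, 2.04%, 9.77% and 4.92%. In its 12 h list Runt letters were at 22.4%, GAGGAA at 31.6% and CCGGAAGT at 0.0%, where all summits had 26.7%, 19.6% and 0.648%. ETO2-GLIS2 had CCGGAAGT at 0.0% in 100 bp windows and at 12 h. By rank number in place of percent, an alternative chosen after seeing the data, AML1-ETO ranked higher at 1 and 2 of the 9 sites shared by all lists, in place of 6 and 7. Leaving out peaks with a near-identical copy, also chosen after seeing the data, left 63, 87, 26 and 31 peaks. The cause of these moves was not tested. The number of genes with a peak kept within 1.5 times its reported value under every alternative. No paired analysis was possible because each group had 1 sample. The number of reads, which limits how many weak peaks can be called, was not used here.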
